A study of Mus musculus with 14 samples.

Results

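The genes described here are 9 mouse genes of T cell quiescence and homing, chosen by name from a list made with earlier results of these arrays known. They are Klf2, S1pr1, Il7r, Tcf7, Lef1, Foxo1, Pik3ip1, Pdcd4 and Btg1, out of 18194 genes named on the array. Of the 9 genes, 8 had a probe set listed with them, 16 probe sets in all, and Tcf7 was not analysed here. The list names genes and states no measured value behind the choice, so the levels are given as a description. Each gene was read on its main probe set, the one with the highest mean over the 14 arrays. The other probe sets of a gene, numbered by their mean, are given beside it, and the plot of probe set ratios names them by identifier. A filter on dim probe sets kept 15 of the 16 probe sets and the main probe set of all 8 genes. Klf2 and the second Pik3ip1 probe set each passed that filter through 3 arrays in which they lay above the array median. In each case these were the untreated Th1 and Th2 arrays and Th1 vector at 4 h, conditions described below.

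Total RNA of mouse T cells that had been polarised to Th1 or Th2 over a culture of weeks was measured on Affymetrix arrays. The study asked what changes when Trpm4, a calcium-activated cation channel, is inhibited. There were 14 conditions with 1 array each, 7 in Th1 and 7 in Th2 cells. In each cell type these were untreated cells, cells with Thy1 siRNA as control, cells with Trpm4 siRNA, cells infected with a vector only at 4 h or 12 h of stimulation, and cells infected with dominant negative Trpm4 (DN Trpm4) at 4 h or 12 h of stimulation. The retrovirus arrays alone carry a stimulation time, so infection and stimulation cannot be told apart. Whether the untreated and siRNA cells were stimulated, and what the stimulus was, is not stated in the sources used here. No strain, age or number of cultures is given, and p-values measure only the spread between these samples, which may be technical.

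A resting T cell is held out of the cell cycle by an active programme. FOXO1, which growth factor signalling through PI3K and AKT keeps out of the nucleus, switches on KLF2 and the interleukin 7 receptor, and KLF2 in turn switches on S1PR1, the receptor that lets T cells leave lymph nodes along a gradient of sphingosine 1-phosphate. TCF7 and LEF1 are related DNA-binding partners of beta-catenin that mark naive and memory cells. PIK3IP1 restrains PI3K at the membrane, PDCD4 blocks the helicase eIF4A in translation, and BTG1 restrains proliferation by promoting the shortening of poly(A) tails.

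Starts of 8 of the 9 members, Tcf7 among them, were found among the RefSeq promoter windows of assembly GRCm38.p6. S1pr1 had no window there and was not searched. The windows reach from 250 bases before to 50 bases after a start, 13 in all for the members. The array files name no build, so these coordinates belong to that assembly alone. The 250 bases before the start are shown for Klf2 and Pik3ip1, whose levels lay far under the untreated arrays in every set of arrays, and for Btg1, whose levels did not. Capitals mark the KLF core (CCACCC or GGGTGG) in Klf2 and Pik3ip1 and the FOXO core (TGTTTAC) in Btg1. The windows lie at chr8:72318812-72319061, chr11:3330481-3330730 and chr10:96616751-96617000, all on the plus strand.
Klf2: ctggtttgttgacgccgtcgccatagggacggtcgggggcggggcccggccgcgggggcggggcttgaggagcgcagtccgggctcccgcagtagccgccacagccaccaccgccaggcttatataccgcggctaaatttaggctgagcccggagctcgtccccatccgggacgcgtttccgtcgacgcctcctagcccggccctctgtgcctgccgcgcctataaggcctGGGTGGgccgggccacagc
Pik3ip1: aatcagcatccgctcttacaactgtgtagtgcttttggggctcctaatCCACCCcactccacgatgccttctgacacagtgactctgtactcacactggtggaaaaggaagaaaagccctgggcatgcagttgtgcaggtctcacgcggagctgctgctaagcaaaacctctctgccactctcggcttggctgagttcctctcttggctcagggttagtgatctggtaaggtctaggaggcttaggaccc
Btg1: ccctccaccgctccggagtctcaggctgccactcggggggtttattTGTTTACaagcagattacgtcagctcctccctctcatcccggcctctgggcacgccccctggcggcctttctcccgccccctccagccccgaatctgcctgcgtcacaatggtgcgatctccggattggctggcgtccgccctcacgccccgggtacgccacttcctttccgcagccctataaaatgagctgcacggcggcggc

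The KLF core stood 19 bases before the start of Klf2 and 202 before that of Pik3ip1, and the FOXO core 204 before that of Btg1. Searched on both strands, the KLF core occurred in windows of 4 members (Klf2, Tcf7, Lef1 and Pik3ip1) and in 31.5% of the 32851 windows of all genes. The FOXO core GTAAACA occurred in windows of 2 members, Tcf7 and Btg1, against 3.65% of all windows. The ETS core CCGGAAG was found in 1 member, Tcf7, against 8.86%, and the TCF and LEF core CTTTGAT in 0 members against 3.73%. The member counts are of genes, some with several windows, while the shares are of windows, so these are unlike measures. The matches describe letters in a window and say nothing of binding.

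The 14 arrays had total signals of 7324678 to 10608719 and correlated at 0.987 to 0.996 within a cell type and set. Control probe sets differed between 2 kinds of array. Both Th1 retrovirus arrays of 4 h and all 4 Th2 retrovirus arrays, 6 in total, had a 3′ signal above the 5′ signal by 5.43 to 5.91 on the log2 scale for Gapdh and by 3.96 to 4.85 for Actb. In the other 8 arrays these ratios ran from -0.25 to 0.04 and from 0.05 to 0.47. The summed signal of 6 T cell markers (Cd3e, Cd3d, Cd3g, Cd4, Cd2 and Cd5) was 14766 to 15680 in the untreated arrays and 3782 to 12586 in the other 12, with 5 or 6 of 6 above the array median in each. For 4 Th1 markers the sums were higher in the Th1 array of each of the 7 matched pairs and for 4 Th2 markers lower. Of the Th1 markers, Ifng and Il12rb2 were higher in Th1 in each pair. Tbx21 was lower in Th1 in both siRNA pairs (446.56 against 830.28 with Thy1 siRNA) and the DN Trpm4 pair of 12 h. Cxcr3 was lower in both siRNA pairs (103.59 against 196.86 with Thy1 siRNA), the vector pair of 4 h and the DN Trpm4 pair of 12 h. Markers of B cells (4 probe sets) summed to 150 to 202.6 in the untreated arrays and 68.5 to 122.2 in the others, and the 2 CD8 markers to 171.5 to 301.2 and 15.3 to 223.9. The single natural killer cell marker had 12.9 and 100.3 against 2.8 to 22.4, and 6 macrophage and dendritic cell markers 229.5 to 337.7 against 158.2 to 279.5. Erythroid markers (2 probe sets) were above the median in 0 arrays, at 12.6 to 29.6 over all. Fibroblast markers (3) summed to 43.6 and 74 against 44.9 to 79, and the naive cell marker Ccr7 to 33.5 and 217.8 against 18.3 to 1079. The part of these markers in the results was not tested. In bulk RNA, fewer cells of a type and less RNA per cell cannot be told apart.

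The targeted gene Trpm4 had deposited signals in Th1 cells of 100.3 (Thy1 siRNA) and 58.44 (Trpm4 siRNA), and in Th2 cells of 133.38 and 84.47. With DN Trpm4 and with vector it had 515.59 and 75.31 in Th1 cells at 12 h, and 119.15 and 70.54 at 4 h. In Th2 cells the signals were 129.1 and 135.39 at 12 h, and at 4 h DN Trpm4 had 127.89, a little above its vector array.

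Values are given as log2 of the quantile-normalised signal plus 16, a scale with a floor of 4.0 and a median of 5.39, on which differences near the floor are understated. No detection calls were used, so a value under the median is called low and not absent. Arrays of one probe set are compared with each other and not with other probe sets. The panels of single array values show that the untreated arrays led for some of the members and not for others.

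**Figure D1:**
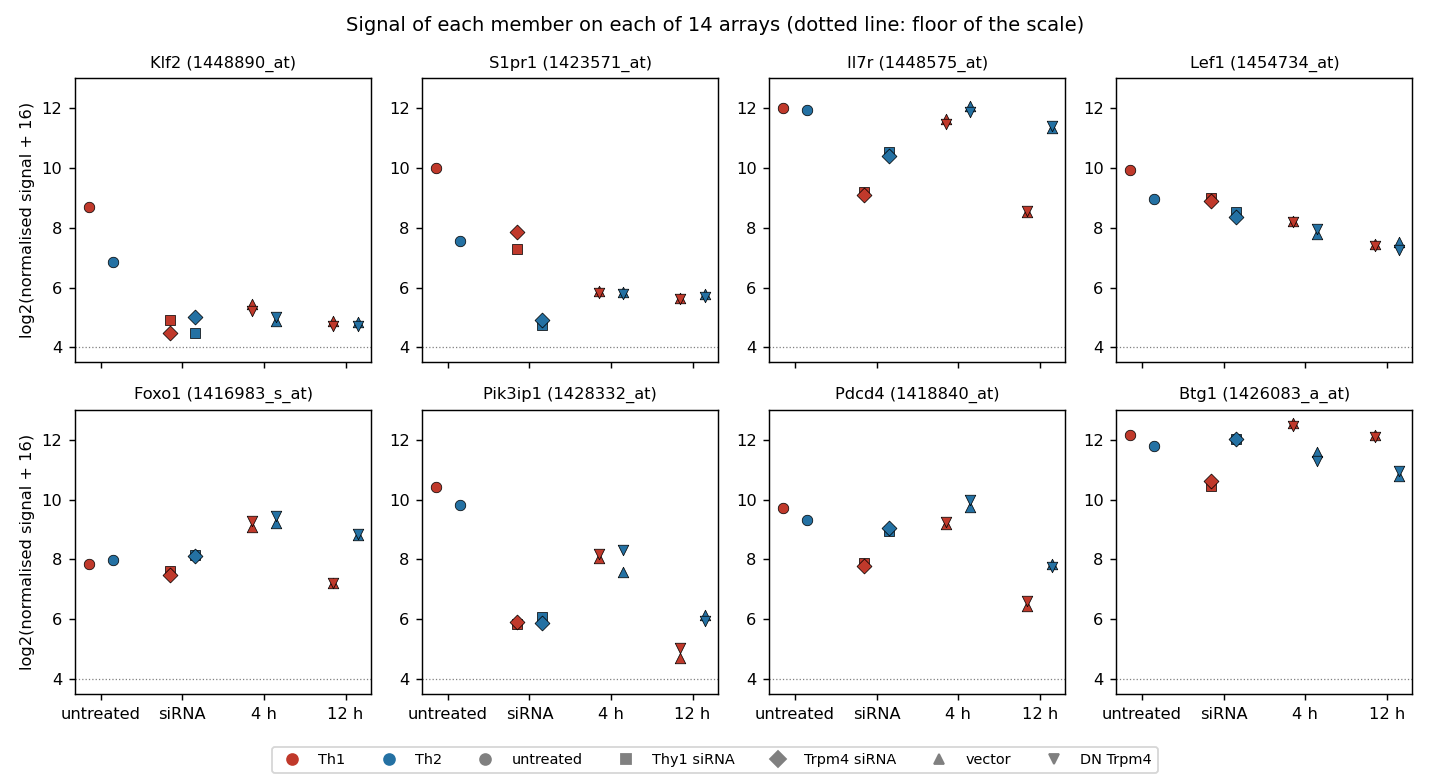
Log2 signal (vertical axis) of the main probe set of 8 members on each of the 14 arrays, grouped by set (horizontal axis), with Th1 in red and Th2 in blue and the treatment as symbol; the dotted line is the floor at 4.0. Klf2 is at 8.69 and 6.86 in the untreated arrays and between 4.47 and 5.46 in all others.

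Klf2, the transcription factor of quiescence and of egress, had a log2 level of 8.69 in untreated Th1 and 6.86 in untreated Th2 cells. The siRNA arrays (Thy1, then Trpm4) stood at 4.91 and 4.49 in Th1 and at 4.47 and 5.03 in Th2 cells. With vector and DN Trpm4 it was 5.46 and 5.20 at 4 h and 4.88 and 4.73 at 12 h in Th1, and 4.90 and 5.03 at 4 h and 4.85 and 4.72 at 12 h in Th2 cells. The untreated arrays thus lay apart from the other 12. Among these, both Th1 arrays of 4 h were the highest and the rest overlapped. The deposited signals behind these values were 313.87 and 91.87 in the untreated arrays and 6.94 to 28.88 in the rest. The mean of the set minus the untreated array was -3.99 (siRNA), -3.36 (4 h) and -3.89 (12 h) in Th1, and -2.11, -1.89 and -2.08 in Th2 cells.

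S1pr1, the egress receptor, had a log2 level of 9.99 in untreated Th1 and 7.55 in untreated Th2 cells. The Thy1 and Trpm4 siRNA arrays stood at 7.28 and 7.85 in Th1 but 4.74 and 4.92 in Th2 cells. In the 8 retrovirus arrays it ran from 5.61 to 5.90, a range within which cell types and times overlapped. In order, untreated Th1 stood highest, untreated Th2 lay between the Th1 siRNA arrays, the retrovirus arrays followed, and the Th2 siRNA arrays were lowest. The gap of 2.93 between Trpm4 siRNA arrays of Th1 and Th2 cells was wider than that of any other pair of the cell types for this gene.

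Il7r, the alpha chain of the receptor for interleukin 7, a survival cytokine, had a log2 level of 12.02 in untreated Th1 and 11.94 in untreated Th2 cells. The siRNA arrays (Thy1, then Trpm4) stood at 9.19 and 9.10 in Th1 and 10.54 and 10.39 in Th2 cells. With vector and DN Trpm4 it was 11.66 and 11.49 at 4 h and 8.54 and 8.56 at 12 h in Th1, and 12.08 and 11.89 at 4 h and 11.36 and 11.39 at 12 h in Th2 cells. The lowest arrays were those of Th1 at 12 h, followed by the Th1 siRNA arrays, and the Th2 arrays at 4 h were level with the untreated ones. The second probe set was lower than untreated in all sets, by 1.88 at 4 h in Th1 cells, where the main one differed by 0.45, and by 1.18 at 4 h in Th2 cells. The level of the main over the other probe set was 2.07 to 2.53 in the 6 arrays of high 3′ ratio and 0.81 to 1.33 in the other 8, so the probe sets split by kind of array without overlap.

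Lef1, the partner of beta-catenin, had a log2 level of 9.95 in untreated Th1 and 8.95 in untreated Th2 cells. It was 9.02 and 8.89 with Thy1 and Trpm4 siRNA in Th1, and 8.54 and 8.38 in Th2 cells. The retrovirus arrays (vector, then DN Trpm4) stood at 8.21 and 8.21 at 4 h and 7.45 and 7.40 at 12 h in Th1, and at 7.80 and 7.95 at 4 h and 7.52 and 7.27 at 12 h in Th2 cells. Within a cell type the order was untreated, siRNA, 4 h and 12 h, with no overlap between neighbouring sets. The second probe set was also highest in the untreated arrays of its cell type and kept 4 h above 12 h in Th2 cells, but in Th1 cells its 12 h arrays (6.22 and 6.23) lay above the 4 h arrays (5.75 and 5.72).

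Foxo1, the transcription factor upstream of several members, read differently on its probe sets. The main one had a log2 level of 7.85 in untreated Th1 and 7.97 in untreated Th2 cells, and 7.62, 7.48, 8.16 and 8.13 in the Th1 and Th2 siRNA arrays. With vector and DN Trpm4 it was 9.09 and 9.28 at 4 h and 7.22 and 7.21 at 12 h in Th1, and 9.23 and 9.44 at 4 h and 8.82 and 8.86 at 12 h in Th2 cells. The 6 highest arrays were the 6 with the high 3′ ratio, and the others lay together under them. On the second probe set the untreated arrays were highest in both cell types, at 9.02 and 8.63 against 7.37 to 8.48 elsewhere. The main over this probe set was 0.82 to 1.32 in the 6 arrays and -1.28 to 0.14 in the other 8, again without overlap.

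Pik3ip1, the inhibitor of PI3K, showed a wide span. Its log2 level was 10.44 in untreated Th1 and 9.82 in untreated Th2 cells, against 5.83, 5.89, 6.08 and 5.88 in the Th1 and Th2 siRNA arrays. With vector and DN Trpm4 it was 8.05 and 8.20 at 4 h and 4.69 and 5.05 at 12 h in Th1, and 7.57 and 8.33 at 4 h and 6.14 and 5.95 at 12 h in Th2 cells. The order in both cell types was untreated, then 4 h, with the 12 h and siRNA arrays at the bottom. In Th1 cells the 12 h arrays were lower than the siRNA arrays, and in Th2 cells these overlapped. The mean of the set minus the untreated array was -4.57 (siRNA), -2.31 (4 h) and -5.57 (12 h) in Th1 and -3.84, -1.87 and -3.77 in Th2 cells. Its second probe set was lower than untreated by 3.08 to 4.57 in the 6 sets.

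Pdcd4, the brake on translation, had a log2 level of 9.72 in untreated Th1 and 9.32 in untreated Th2 cells. The siRNA arrays stood at 7.87 and 7.77 in Th1 and 8.95 and 9.07 in Th2 cells. With vector and DN Trpm4 it was 9.20 and 9.26 at 4 h and 6.43 and 6.62 at 12 h in Th1, and 9.75 and 9.99 at 4 h and 7.86 and 7.74 at 12 h in Th2 cells. The 4 h arrays of Th2 cells lay above the untreated array and those of Th1 cells under it, and the 12 h arrays were the lowest of each cell type.

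Btg1, the restraint on proliferation, had a log2 level of 12.17 in untreated Th1 and 11.78 in untreated Th2 cells. It was 10.46 and 10.64 with the siRNAs in Th1 and 12.02 and 12.04 in Th2 cells. With vector and DN Trpm4 it was 12.58 and 12.47 at 4 h and 12.15 and 12.11 at 12 h in Th1, and 11.61 and 11.30 at 4 h and 10.79 and 10.95 at 12 h in Th2 cells. The lowest 4 arrays were the siRNA arrays of Th1 cells and the 12 h arrays of Th2 cells, with the rest between 11.30 and 12.58. The probe set of lowest mean was highest in the 2 untreated arrays, at 9.49 and 9.18, while the second was not.

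Against the untreated array of the same cell type, Klf2, S1pr1, Lef1 and Pik3ip1 were lower in 12 of 12 arrays, Il7r in 11, Pdcd4 in 10, Btg1 in 8 and Foxo1 in 4. This comparison was chosen after seeing the data, rests on 1 untreated array per cell type and has no test. Counted by set mean and a difference of more than 1 on the log2 scale, 6 of 8 members were lower with siRNA in Th1 cells, where 13.5% of all 29467 kept probe sets were lower. The count was 4 of 8 at 4 h (19.9% of all) and 6 of 8 at 12 h (16.1%) in Th1 cells. In Th2 cells it was 4 of 8 with siRNA (8.98%), 4 of 8 at 4 h (14.7%) and 5 of 8 at 12 h (15.7%). Foxo1 on its main probe set was the member higher by more than 1, at 1.33 (Th1) and 1.36 (Th2) at 4 h, and on its second probe set it was lower there, by 1.08 and 0.23. The member medians were -2.16, -1.11 and -3.33 in Th1 and -0.99, -0.70 and -1.54 in Th2 cells, beside medians of 0.02 to 0.11 over all kept probe sets. The 6 set means share 2 untreated arrays, so they are not independent of each other. All 4 h arrays and the Th2 arrays at 12 h had the high 3′ ratio and the untreated arrays did not. In those sets the kind of array and the difference cannot be told apart. The counts use main probe sets, and at 4 h Il7r had -0.45 (Th1) and 0.04 (Th2) on its main one but -1.88 and -1.18 on its second. Klf2, counted as lower in all 6 sets, was kept by the filter through the untreated arrays and Th1 vector at 4 h. Its part in these counts and medians is therefore no support.

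**Figure D2:**
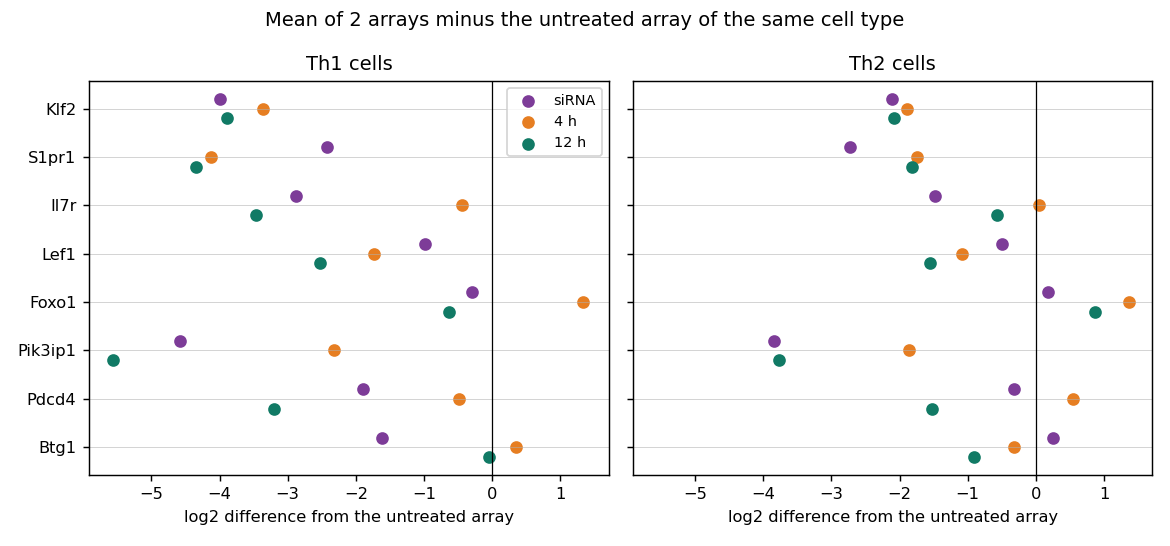
Mean of the 2 arrays of a set minus the untreated array of the same cell type (horizontal axis, log2 difference) for each member (vertical axis), in Th1 (left) and Th2 cells (right), with the set as colour. Pik3ip1 runs from -1.87 to -5.57, while Foxo1, Il7r, Pdcd4 and Btg1 lie on both sides of 0.

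Genes around the members were described in the same way, with the same limit from the kind of array, on lists chosen with earlier results known. Of 15 FOXO and PI3K pathway genes, 8, 3 and 11 were lower by more than 1 with siRNA, at 4 h and at 12 h in Th1 cells, and 7, 5 and 6 in Th2 cells, while 1, 2 and 1 against 0, 1 and 0 were higher. The deposited signal of Cdkn1b, the cell cycle inhibitor p27, was 1034.56 and 934.18 in the untreated Th1 and Th2 arrays and 58.93 to 542.08 elsewhere. That of Txnip, a FOXO target that limits glucose uptake, was 4315.71 and 3118.42 against 513.97 to 2452.33. Both genes were highest in the 2 untreated arrays, without overlap. Of 11 egress and homing genes, 6, 5 and 8 were lower in Th1 and 5, 3 and 7 in Th2 cells, and 2, 2 and 1 against 1, 1 and 1 higher. S1pr4, another sphingosine 1-phosphate receptor, had 709.49 and 580.03 untreated and 72.89 to 356.53 elsewhere. Of 23 growth restraint genes, 9, 9 and 9 were lower in Th1 and 4, 8 and 8 in Th2 cells, and 2, 7 and 3 against 5, 4 and 2 were higher. Ypel3, a growth suppressor, had 1110.21 and 650.62 untreated and 39.27 to 347.7 elsewhere. Cdkn1b, Txnip, S1pr4 and Ypel3 were picked after their values were seen, and other genes of these lists were lowest in the 2 untreated arrays. Among those, the PI3K subunit gene Pik3ca had 131.37 and 204.37 untreated and 209.33 to 494.08 elsewhere. The kinase gene Sphk1 had 14.77 and 3.51 against 93.7 to 540.54, and Tob2 90.1 and 168.06 against 386.44 to 621.38. The 10 IL-7 receptor pathway genes had 2, 3 and 3 lower in Th1 and 3, 3 and 4 in Th2 cells, and 2, 5 and 2 against 1, 0 and 0 higher, so that at 4 h in Th1 cells more were higher than lower. The 10 TCF and LEF partners had 2, 1 and 2 lower in Th1 and 0 in each set of Th2 cells, and 0, 2 and 0 against 0, 1 and 1 higher. Of 2 PDCD4 partners, 1 was lower, at 4 h in Th2 cells. Of 13 activation and cycling genes, 7, 9 and 7 were higher in Th1 and 3, 4 and 2 in Th2 cells, with 1, 2 and 4 and 3, 0 and 1 lower. Of all kept probe sets, 16%, 23% and 18.8% were higher by more than 1 in Th1 and 9.24%, 15.8% and 17% in Th2 cells. Il2, the growth factor of activated T cells, had 81.57 and 18.78 untreated, 327.97 and 605.86 with the siRNAs in Th1 and 17.01 and 17.64 in Th2 cells.

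Time within the retrovirus arrays was compared in 4 pairs of arrays of the same cell type and construct. Pdcd4 and Pik3ip1 fell from 4 h to 12 h. All 8 members had a lower main probe set at 12 h in each of the 4 pairs. The second Lef1 probe set rose in Th1 (0.47 and 0.51) and fell in Th2 cells (-0.61 and -0.30). Its mean was 0.02 (limma adjusted p = 0.963). The Btg1 probe set of lowest mean rose in the Th2 DN Trpm4 pair (0.33) and fell in the others. In Th1 cells the 12 h and 4 h arrays differed in kind of 3′ ratio, so time and kind cannot be told apart there. The single differences of Pdcd4 were -2.77 and -2.64 in Th1 and -1.90 and -2.25 in Th2 cells with vector and DN Trpm4, and its mean was -2.39 ± 0.19 on the log2 scale (SE, 4 pairs, limma adjusted p = 0.0313). Pik3ip1 had -3.36 and -3.15 in Th1 and -1.42 and -2.38 in Th2 cells, with a mean of -2.58 ± 0.33 (4 pairs, limma adjusted p = 0.0395). Its second probe set had -0.74 ± 0.17 and did not pass (limma adjusted p = 0.0754). The 12 h values of that probe set, 4.49 to 4.83, lay near the floor of 4.0, where differences are understated. Pdcd4 and Pik3ip1 were the 2 of 8 members called, beside 2.01% of all probe sets. The other 6 did not pass in limma, with Il7r at -1.82 ± 0.51 (adjusted p = 0.105), Foxo1 at -1.23, Lef1 at -0.63 ± 0.15 (adjusted p = 0.0805), Btg1 at -0.49, Klf2 at -0.36 and S1pr1 at -0.15. Both calls ended when any 1 of the 4 pairs was left out (limma adjusted p = 0.0731 to 0.206). In the 2 Th2 pairs alone, whose arrays are of one kind in 3′ ratio, Pdcd4 had -2.08 and Pik3ip1 -1.90. This alternative was chosen after seeing the data. Its fit leaves 1 residual degree of freedom, so its p-values are not given.

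**Figure D3:**
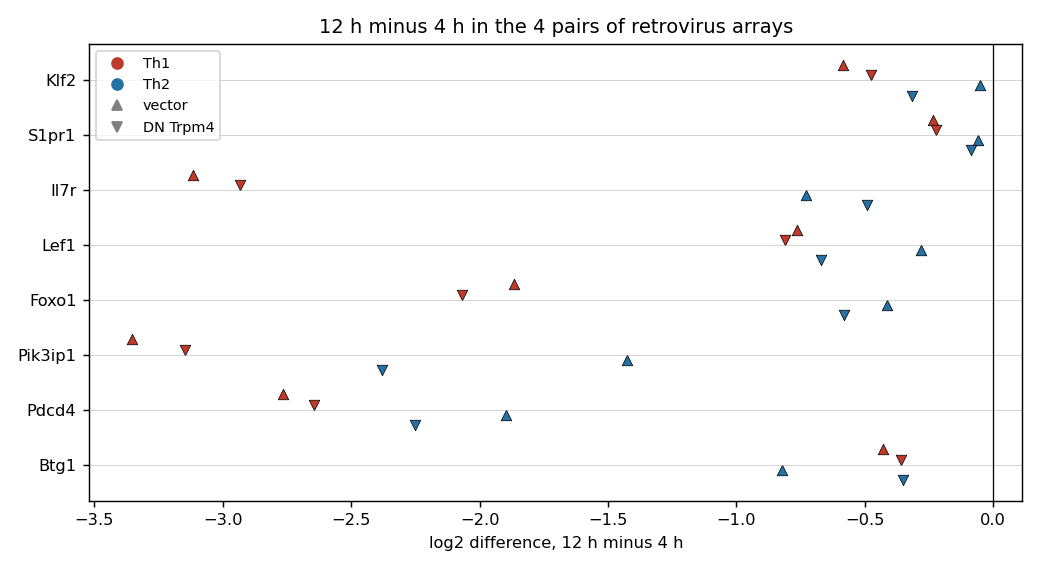
Log2 difference of 12 h minus 4 h (horizontal axis) for each member (vertical axis) in the 4 pairs of retrovirus arrays, with Th1 in red and Th2 in blue and the construct as symbol. Every point lies under 0, and the Th1 points lie under the Th2 points for every member except Btg1, where they overlap.

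Among other genes, 4 of 23 growth restraint genes fell over this time in limma and 0 rose. These included Ypel3 at -2.17 ± 0.16, Slfn1, a brake on thymocyte growth, at -2.05 and Btg2, a relative of Btg1, at -1.10 (limma adjusted p = 0.0313, 0.0399 and 0.0450). In the IL-7 receptor list 1 of 10 fell, the survival gene Bcl2 at -2.35 ± 0.34, and in the egress list 1 of 11, Selplg, the selectin ligand PSGL-1, at -1.77 ± 0.21. The activation gene Nr4a1 fell by 1.36 (1 of 13). No gene passed among 15 FOXO and PI3K genes, 10 TCF and LEF partners and 2 PDCD4 partners. Of all 29467 probe sets, 382 fell and 210 rose.

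The difference of this time effect between cell types (Th1 effect minus Th2 effect) was tested in the same 8 arrays. Il7r had the more negative effect in Th1 cells, at -3.11 and -2.93 against -0.73 and -0.49, a difference of -2.41 ± 0.20 (SE, 4 pairs, limma adjusted p = 1.15e-04). The differences of Foxo1, Pik3ip1 and Pdcd4 were -1.47 ± 0.20, -1.35 ± 0.30 and -0.63 ± 0.21 (limma adjusted p = 8.55e-04, 0.00877 and 0.0435). In all, 4 of 8 members were called, beside 38.2% of all probe sets. The pairs of a cell type differ only in construct and are not stated to be separate cultures, so their spread may be technical. The 12 h and 4 h arrays were of different kinds in 3′ ratio in Th1 cells and of one kind in Th2 cells, so the kind of array and this difference cannot be told apart. On the second Il7r probe set the difference was -1.10 ± 0.21 (adjusted p = 0.00413), and on the other Foxo1 probe sets 0.16 and -0.42, which did not pass. The second Lef1 probe set had 0.95 ± 0.20 (higher, adjusted p = 0.00717) where the main one had -0.31 (adjusted p = 0.285). The Btg1 probe set of lowest mean was lower at -1.05 ± 0.23 (adjusted p = 0.00781) where the main one had 0.19. The second Pik3ip1 probe set had -0.53 and did not pass (adjusted p = 0.0667), with 12 h values near the floor. The call of Pdcd4 ended without the Th1 vector pair (-0.57, adjusted p = 0.248), the Th1 DN Trpm4 pair (-0.69, adjusted p = 0.167) or the Th2 vector pair (-0.45, adjusted p = 0.102).

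**Figure D4:**
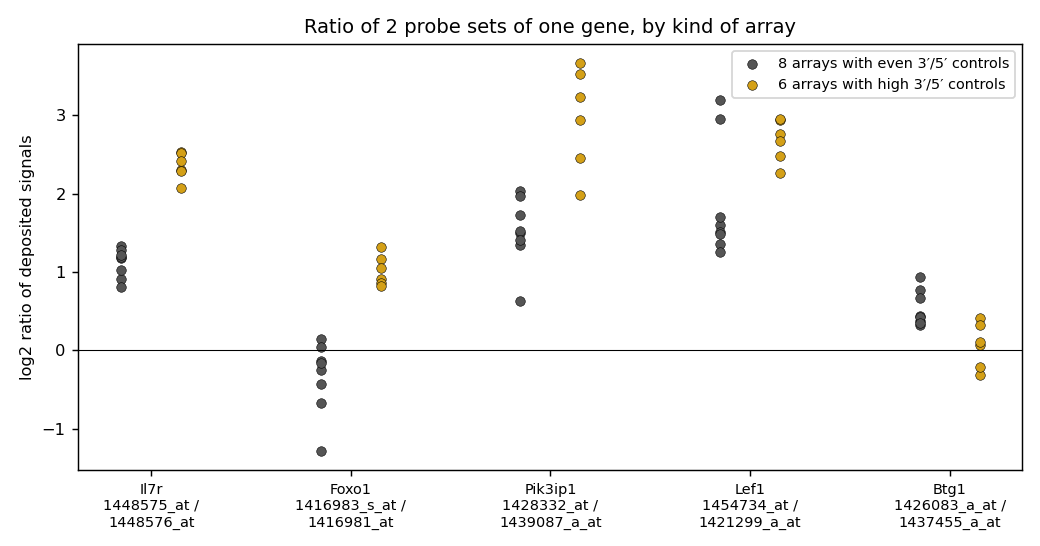
Log2 ratio of deposited signals of 2 probe sets of one gene (vertical axis) for 5 members (horizontal axis), with a point per array and the kind of array as colour. For Il7r the 6 arrays of high 3′ ratio lie at 2.07 to 2.53 and the other 8 at 0.81 to 1.33, and for Foxo1 the ranges are also separate.

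In the lists, 11 of 15 FOXO and PI3K genes were lower in this difference and 0 higher, including the cyclin G2 gene Ccng2 at -2.65 ± 0.20, Sesn1, a stress-induced regulator of TORC1, at -2.60 and Sesn3, its relative, at -2.04 (limma adjusted p = 8.14e-05, 1.10e-04 and 6.88e-04). Of 11 egress genes, 6 were lower and 1 (Ccr7, 0.80) higher, and of 23 growth restraint genes 8 and 3. The IL-7 receptor list had 4 of 10 lower and 3 higher, the TCF and LEF partners 4 of 10 lower and 0 higher, and the activation list 4 of 13 in each direction. Of 2 PDCD4 partners 0 passed. Of all 29467 probe sets, 5913 were lower and 5340 higher in this difference. The same confounding with the kind of array holds for the lists.

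Set against the average of untreated and siRNA arrays, 6 averages of cell type and set were fitted. At 12 h Lef1 and Pdcd4 were lower, with differences of -1.55 ± 0.26 and -1.62 ± 0.27 (SE, 6 averages, limma adjusted p = 0.0467 and 0.0466). That was 2 of 8 members beside 4.23% of all probe sets. The second Lef1 probe set had -1.37 and did not pass (limma adjusted p = 0.107). The main Pik3ip1 probe set, at -1.86, did not pass (limma adjusted p = 0.0635), and the second did at -1.48 (adjusted p = 0.0467). That second probe set was kept by the filter through the untreated arrays, which are part of the baseline, so its call is no support. At 4 h limma called 0 of 8 members beside 15.5% of all probe sets, though 3 members had an unadjusted p under 0.05 (Foxo1 at 1.39 ± 0.40, Lef1 at -0.91 ± 0.26 and Pdcd4 at 0.77 ± 0.27). The other Foxo1 probe sets had -0.03 and 0.33 there. All 4 h arrays and the Th2 arrays at 12 h had the high 3′ ratio and no untreated or siRNA array did, so at 4 h the kind of array and the contrast cannot be told apart, and at 12 h they are mixed in Th2 cells. These contrasts use the untreated arrays, in which the members were known to be high, and so are no independent support. Both calls at 12 h ended without the untreated Th1 array (Lef1 -1.38, Pdcd4 -1.31, adjusted p = 0.0589 and 0.0782), the untreated Th2 array (-1.46 and -1.57, adjusted p = 0.0620 and 0.0552) or the DN Trpm4 arrays (-1.47 and -1.64, adjusted p = 0.0540 and 0.0522). With the siRNA arrays alone as baseline, an alternative chosen after seeing the data, Klf2 was higher by 0.42 at 4 h and 0.07 at 12 h, against -0.59 and -0.95 with the untreated arrays in.

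In the lists, the egress gene Sphk1, the kinase that makes sphingosine 1-phosphate, was higher at 4 h (2.13 ± 0.38, limma adjusted p = 0.0330), 1 of 11. Of 15 FOXO and PI3K genes 1 was higher (Irs2, 1.38) and 2 lower (the PI3K subunit gene Pik3cd, -1.35, and the kinase gene Akt1, -1.26). Of 10 IL-7 receptor genes 3 were lower, the kinases Jak1 (-1.77) and Jak3 (-1.84) and their inhibitor Socs1 (-2.92). Of 13 activation genes 2 were higher, Il2 (3.03) and Egr2 (3.23). At 12 h Cxcr4, a chemokine receptor of homing, was lower (-1.82, 1 of 11), as was Ypel3 (-2.10, 1 of 23), and no other list member passed. Of all 29467 probe sets, 2603 were higher and 1972 lower at 4 h, and 690 and 557 at 12 h.

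The cell types were set against each other in 7 pairs, each a Th1 and a Th2 array of like treatment and time. Pdcd4 was lower in Th1 cells, at -0.83 ± 0.21 on the log2 scale (SE, 7 pairs, limma adjusted p = 0.0352), and in 6 of 7 pairs. It was the 1 of 8 members called, beside 9.79% of all probe sets. Il7r was lower in 6 of 7 pairs at -1.29 ± 0.36 and did not pass (adjusted p = 0.0502), while its second probe set did (-0.84 ± 0.22, adjusted p = 0.0446). S1pr1 had 1.11 ± 0.43 (adjusted p = 0.133), Foxo1 -0.69 ± 0.22 (adjusted p = 0.0773), with 7 of 7 pairs lower, and Lef1 0.39 ± 0.14 (adjusted p = 0.110). The second Lef1 probe set passed at 0.86 ± 0.23 (higher in Th1, adjusted p = 0.0463). Klf2 (0.36 ± 0.24), Btg1 (0.30 ± 0.38) and Pik3ip1 (-0.23 ± 0.24) did not pass either (limma adjusted p = 0.360, 0.647 and 0.563). The Pdcd4 call ended without any 1 of the 6 pairs other than the untreated one (limma adjusted p = 0.0585 to 0.0937) and without both 12 h pairs (-0.65, adjusted p = 0.175), whose arrays differ in kind between the cell types.

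Around the members, Th1 cells had higher Foxp1, a forkhead factor of naive T cell quiescence (2.23 ± 0.30, limma adjusted p = 0.00214), and Klf7 (1.24), and lower Ets1 (-1.27) and Slfn1 (-1.15), which made 2 higher and 2 lower of 23. Of 11 egress genes Sphk1 was higher (1.06) and the gut-homing integrin gene Itgb7 (-1.79) and Cxcr4 (adjusted p = 0.00596) lower. Of 15 FOXO and PI3K genes Pik3cd was higher (0.45) and the phosphatase gene Inpp5d lower (-1.52). In the TCF and LEF list Gata3, the Th2 master factor (-2.92), Axin2 (-1.08) and Id2 (-0.46) were lower, 3 of 10, and of 10 IL-7 receptor genes the survival gene Mcl1 was lower (-0.71). Of 13 activation genes 4 were higher, among them Il2 (3.84), Ifng (3.54) and Myc (1.56), and 1 lower, Tnfrsf4 (-1.76). Of all 29467 probe sets, 1076 were higher and 1808 lower.

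Inhibition of Trpm4, the question of the series, was compared in 6 pairs, Trpm4 siRNA with Thy1 siRNA and DN Trpm4 with vector. No member passed. Pik3ip1 had the widest mean of the 8, at 0.16 ± 0.12 on the log2 scale (SE, 6 pairs, limma adjusted p = 0.907), and the means of the others lay between -0.09 (Il7r) and 0.08 (S1pr1). Of the 48 single values, 45 were within 0.5 of 0. The 3 beyond it were Pik3ip1 at 0.77 (Th2, 4 h), S1pr1 at 0.57 (Th1, siRNA) and Klf2 at 0.56 (Th2, siRNA), and Klf2 had the lowest value, -0.41 (Th1, siRNA). Limma called 0 of 8 members and 0% of 29467 probe sets, with 1733 probe sets and 0 members at an unadjusted p under 0.05. For the difference of the inhibition effect between Th1 and Th2 cells it called 0 of 8 members and 0% of probe sets. There 1032 probe sets and 1 member, Klf2, had an unadjusted p under 0.05. The deposited Klf2 signals of the siRNA arrays, 6.94 to 18.23, lay under the array medians of 25.43 to 28.3. In the lists 0 members passed in either comparison.

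**Figure D5:**
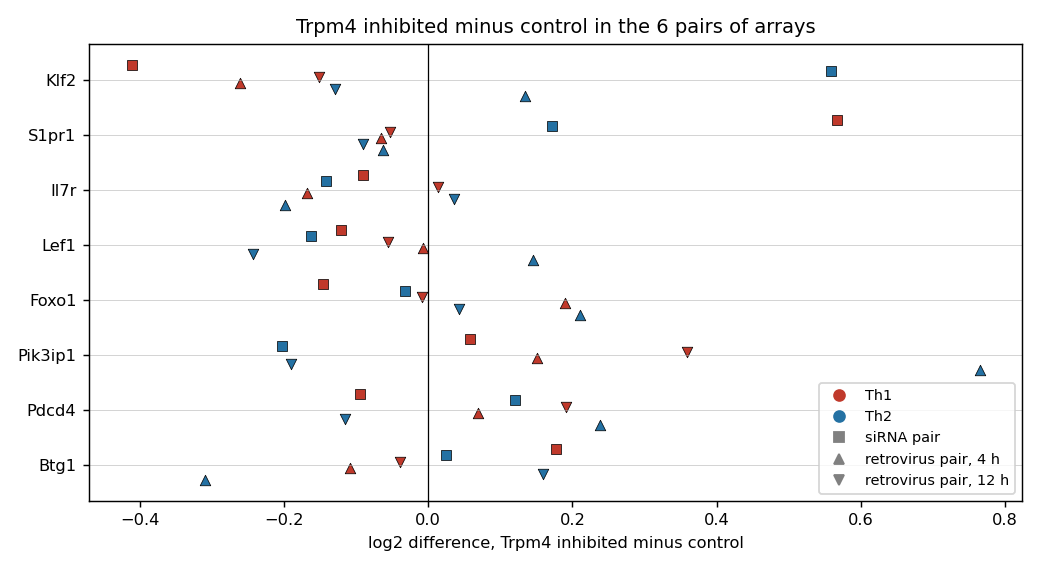
Log2 difference of Trpm4 inhibited minus control (horizontal axis) for each member (vertical axis) in the 6 pairs of arrays, with Th1 in red and Th2 in blue and the kind of pair as symbol. The points run from -0.41 to 0.77 and each member has points on both sides of 0.

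Over the 14 arrays, which share 1 normalisation and fall into 2 kinds, the members correlated unevenly, as a description. Pearson's r was 0.78 for Klf2 with S1pr1 and -0.13 for the 12 arrays without the untreated ones. For Klf2 with Pik3ip1 it was 0.81 and 0.62, for Il7r with Foxo1 0.80 and 0.98, and for Pdcd4 with Pik3ip1 0.80 and 0.87. Btg1 with Klf2 had 0.32 and 0.48, and with S1pr1 -0.16 and -0.63. The genes whose log2 levels were most like each member by Pearson's r over the 14 arrays were Igsf23, Wdr13 and R3hdm4 for Klf2 (0.96 to 0.97), Trgv4, Cd80 and Tmem107 for S1pr1 (0.94 to 0.96) and Laptm5, Itm2b and Saraf for Il7r (0.98 to 0.99). They were Cyp4v3, Septin6 and Ncoa7 for Lef1 (0.95 to 0.96), Kmt2c, 9330175E14Rik and Kdm3b for Foxo1 (0.98), Abcg1, Tmem106b and Il16 for Pik3ip1 (0.97 to 0.98), Parp4, Pts and Bbip1 for Pdcd4 (0.98) and Adgre5, Cpsf7 and Fcho2 for Btg1 (0.89 to 0.93).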

How the data were processed

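RNA from Th1 and Th2 cells was measured on 14 Affymetrix arrays, 1 per condition. The deposited values are probe set intensity on a linear scale, per the file headers, made by the authors with a summarisation and scaling not given in the sources used here. After quantile normalisation of all 14 arrays, 16 was added and log2 taken. Probe sets above the array median in at least 2 arrays were kept (29467 of 45101). Comparisons used limma 3.58.1 (R 4.3.3), blocking on matched pairs, or 6 averages of cell type and set, with two-sided tests and a Benjamini-Hochberg adjusted p under 0.05 over all kept probe sets. The fits were tested on simulated data.

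The members and lists were chosen with earlier results of these data known. All members were named, each on its probe set of highest mean. Up to 3 called genes per list and direction were named, and some others for illustration after their values were seen. Probe set names come from the platform annotation, and promoters from RefSeq. Alternatives were deposited or median-centred values, pseudocounts of 1 and 64, other filters, a variance trend, no pair block and arrays or pairs left out.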

Additional observations from a re-analysis of the deposited data

Results flagged for a closer look

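The time effect (12 h minus 4 h) differed between cell types by limma's test of the difference, Th1 effect minus Th2 effect on the log2 scale, for Il7r (-2.41, adjusted p = 1.15e-04), Foxo1 (-1.47, adjusted p = 8.55e-04), Pik3ip1 (-1.35, adjusted p = 0.00877) and Pdcd4 (-0.63, adjusted p = 0.0435). The Th1 arrays differ in 3′ ratio between the times and the Th2 arrays do not.

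Against the untreated array, both arrays of a set moved one way in Th1 and the opposite way in Th2 cells in 5 cases. The Th1 effect minus the Th2 effect was -0.47 for Foxo1 and -1.88 for Btg1 with siRNA, -1.04 for Pdcd4 and 0.68 for Btg1 at 4 h, and -1.50 for Foxo1 at 12 h. The opposite directions did not hold on the other Foxo1 probe sets, which were lower in both cell types (-1.30 and -0.56 with siRNA and -1.52 and -0.83 at 12 h on the second). For Btg1 with siRNA they held on the second probe set (-1.25 and 0.69) and not on the one of lowest mean (-2.96 and -1.54), and at 4 h on neither (0.69 and 0.62, -0.49 and -1.83). Pdcd4 has 1 probe set. These differences were not tested, since each cell type has 1 untreated array. All 4 h arrays and the Th2 arrays at 12 h also differ from the untreated arrays in 3′ ratio.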

How the results depend on the processing

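Counts are of the 8 members called. For Th1 minus Th2 (1 called), the count was 2 on deposited values, with a filter at the 75th percentile and with a variance trend, 3 when every probe set of a gene could count, and 0 with a pseudocount of 1, without the pair block (replicate block), with 3 pairs of averages and with the 12 h pairs omitted. It ran from 0 to 2 with 1 pair left out. For 4 h minus no stimulation time (0 called), it was 2 with all 14 arrays as units, 1 with the untreated arrays omitted (Pik3ip1) and 0 to 1 with arrays left out. For 12 h minus no stimulation time (2 called), it was 1 on deposited values, 4 with a variance trend, 0 with a pseudocount of 64, with a filter at the 75th percentile and with the untreated arrays omitted, and 0 to 3 with arrays left out. For 12 h minus 4 h (2 called), it was 0 with a pseudocount of 1, 6 without the pair block and 0 with any 1 pair left out. In the difference of that effect between cell types (4 called), it ran from 3 to 6 over all settings, and for Trpm4 inhibition and its difference between cell types it was 0 in all.

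Directions reversed in few cases, none of them called. With the 12 h pairs omitted, Pik3ip1 (0.15) and Btg1 (-0.087) turned in Th1 minus Th2. With the untreated arrays omitted, Klf2 turned at 4 h (0.42), and Klf2 (0.067), Il7r (0.16) and Btg1 (0.21) at 12 h. With 1 array or pair left out, Klf2 ran from -0.98 to 0.072 at 4 h and Btg1 from -0.18 to 0.25 at 12 h. Btg1 ran from -0.041 to 0.43 in the difference of the time effect, and with Trpm4 inhibited Klf2 ran from -0.16 to 0.030, S1pr1 from -0.020 to 0.11 and Btg1 from -0.055 to 0.043. The cause was not tested.

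Counts of probe sets also moved. Against 2884 for Th1 minus Th2, 837 were called without the pair block, 102 on 3 averages, 1256 without the 12 h pairs and 1450 to 2901 with 1 pair left out. At 4 h, 4575 became 7 with a pseudocount of 64, 2975 with no filter, 2614 at the 75th percentile and 14821 with 14 arrays. At 12 h, 1247 became 4 with a pseudocount of 64, 3005 with a pseudocount of 1, 280 at the 75th percentile, 2863 with a trend, 8818 with 14 arrays and 284 to 1574 with arrays left out. For 12 h minus 4 h, 592 became 0 with a pseudocount of 1 or any pair left out, 351 with a trend and 6113 without the block. In Th2 pairs alone, a fit with 1 residual degree of freedom, it was 1846. For its difference 11253 became 5845 to 12630 with 1 pair left out. Signals near the floor, such as Klf2 outside the untreated arrays, understate differences.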
